A study of Mus musculus with 6 samples.

Results

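Eicosanoids are signalling lipids made from arachidonic acid. The set described here holds 10 genes of their synthesis and sensing, out of 55421 genes counted in tumor-associated macrophages (TAMs). They were chosen by name, as 5 enzymes of the prostanoid branch (Ptgs1, Ptgs2, Ptges, Hpgds and Tbxas1), 4 genes of the leukotriene branch (Alox5, Alox5ap, Ltc4s and Lta4h) and Ptger4, a receptor for prostaglandin E2. All 10 symbols matched an Ensembl gene in the raw and the normalized count tables, and all 10 had enough counts to be tested.

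TAMs were sorted as live CD45+CD11b+F4/80+Ly6G- cells from fibrosarcomas of Pdcd1f/fLysMcre and Pdcd1f/f mice on day 15 after implantation, with 3 libraries for each genotype. The sample labels write the tumor cells as M17, a shortened form of the cell line name in the study's methods. Both genotypes carry floxed Pdcd1, the gene for the inhibitory receptor PD-1, and both bore the same tumor. The mice were 8 to 12 weeks old when tumor cells were injected, as the study's methods give it for its tumor experiments. In Pdcd1f/fLysMcre mice, Cre is expressed from the lysozyme promoter and deletes floxed Pdcd1 across the myeloid lineage, so neutrophils and monocytes are targeted as well as TAMs. The sources used here do not say whether a library came from 1 mouse or from pooled mice, and p-values then measure only the spread between these libraries. The question of the comparison is how TAMs differ in gene expression when myeloid cells lack PD-1.

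Arachidonic acid is released from membrane phospholipids and enters either branch. The cyclooxygenases Ptgs1 and Ptgs2 turn it into prostaglandin H2, from which terminal synthases such as Ptges, Hpgds and Tbxas1 make prostaglandin E2, prostaglandin D2 and thromboxane A2. In the other branch Alox5, with its activating protein Alox5ap, makes leukotriene A4, which Lta4h hydrolyses to leukotriene B4 and Ltc4s conjugates to glutathione to give the cysteinyl leukotrienes. Macrophages carry both branches, and prostaglandin E2 made in tumors is known as a mediator that acts on immune cells through receptors such as Ptger4.

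The library totals were 41833823 to 51417209 counts. Lyz2, the locus that drives Cre, had 207974 to 225226 normalized counts in Pdcd1f/f libraries and 405 to 465 in Pdcd1f/fLysMcre libraries. Pdcd1 itself had only 7 to 16 counts per library, too few to check the deletion. Loss of PD-1, presence of Cre and the lower Lyz2 came with the same genotype, so their effects cannot be told apart. Summed normalized counts of 4 Y-linked genes were 1545 to 1914 in Pdcd1f/f and 6267 to 7233 in Pdcd1f/fLysMcre libraries. Xist was at 17318 to 26511 and 8530 to 13137 normalized counts, so every library held both Xist and Y-linked transcripts. Both differed between the genotypes, so the sex of the mice and the genotype cannot be told apart. The study's methods state that its experiments used males and females in equal number. Pdcd1f/f replicate 1 and Pdcd1f/fLysMcre replicate 2 stood apart from the other libraries in how counts varied with the GC content of genes. Across 10607 genes the rank correlation of a library's deviation with GC content was -0.80 and -0.72 in these libraries, against 0.19 to 0.75 in the others, and values without both are given for the members that passed a test with or without them, for the further pathway genes that passed and for the balance of the branches.

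The bases just before the start sites of Ptgs2, which rose, and of Tbxas1, which fell, are shown so that the regulatory sequence of members that moved in opposite directions can be compared. They are from RefSeq (GRCm38.p6), written 5′ to 3′ on the gene's strand, with capitals marking the motifs found among 8 that were searched on both strands. Promoters of 9 of the 10 members were matched by symbol. The Ptgs2 run is chr1:150099781-150100030, on the plus strand.

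Ptgs2 promoter: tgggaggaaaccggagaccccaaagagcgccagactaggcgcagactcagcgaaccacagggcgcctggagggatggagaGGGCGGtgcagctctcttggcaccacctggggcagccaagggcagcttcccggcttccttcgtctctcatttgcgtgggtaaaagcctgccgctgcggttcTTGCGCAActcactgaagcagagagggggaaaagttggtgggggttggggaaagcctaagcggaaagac

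Tbxas1 promoter: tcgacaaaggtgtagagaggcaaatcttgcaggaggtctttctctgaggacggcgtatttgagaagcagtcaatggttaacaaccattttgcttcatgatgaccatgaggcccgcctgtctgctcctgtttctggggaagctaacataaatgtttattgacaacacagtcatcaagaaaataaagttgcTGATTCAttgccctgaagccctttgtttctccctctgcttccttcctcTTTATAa

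The Tbxas1 run is chr6:38918736-38918979, on the plus strand, and lies within the span of the gene's annotation because other annotated transcripts start upstream of the RefSeq start. Ptgs2 held TTGCGCAA, a match to TTGCNNAA, the core bound by C/EBP factors, 69 bases before the start, and GGGCGG, a GC box, 170 bases before it. Tbxas1 held TGATTCA, a match to TGANTCA, the AP-1 core, 61 bases before the start, and TTTATA, the reverse complement of TATAAA, 13 bases before it. This last match overlaps a TATAAA that begins 11 bases before the start and runs past the bases shown. Among 32851 promoters over the same 250 bases, TTGCNNAA was in 9.56%, GGGCGG in 32.7%, TGANTCA in 6.75% and TATAAA in 12.4%. The other motifs searched were TGACGTCA (in 1.55% of promoters), CACGTG (6.02%), GGAAGT (19.7%) and the NF-kappaB consensus (3.9%), and none of these was in either window. A match describes the letters of the window and is not evidence of binding.

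In TAMs from Pdcd1f/fLysMcre mice the inducible cyclooxygenase Ptgs2 was 1.30-fold higher than in Pdcd1f/f TAMs, whereas Hpgds and Tbxas1, the synthases of prostaglandin D2 and thromboxane A2, were 1.28-fold and 1.29-fold lower. The other 7 members did not pass the test (edgeR quasi-likelihood test, Benjamini-Hochberg adjustment over 14469 genes, threshold 0.05). Of all genes tested, 5.43% passed, with 2.42% higher and 3.01% lower, and of the 10 members 1 was higher and 2 were lower. Normalized counts of 6 members did not overlap between the genotypes, 1 higher (Ptgs2) and 5 lower (Hpgds, Tbxas1, Alox5, Alox5ap and Ptger4), where 27.5% of all genes tested did not overlap, 14.7% higher and 12.8% lower. The median log2 fold change was -0.21 over the 10 members and -0.0026 over all genes tested.

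**Figure D1:**
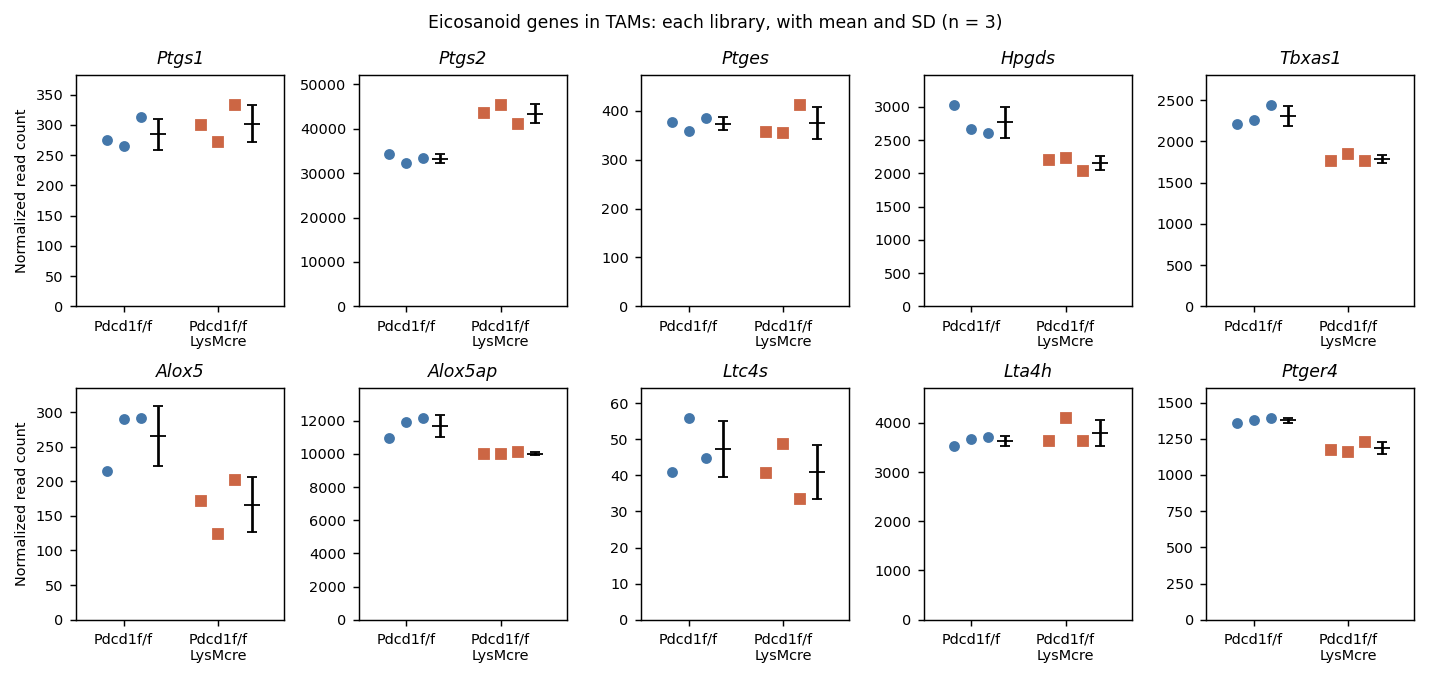
Normalized read count (y axis, counts divided by the library's size factor) of each of the 10 eicosanoid genes in 3 Pdcd1f/f libraries (circles) and 3 Pdcd1f/fLysMcre libraries (squares), with the mean and SD of 3 libraries beside them. The Ptgs2 panel has all 3 Pdcd1f/fLysMcre libraries at 41126 counts or more and all Pdcd1f/f libraries at 34258 or fewer, and Hpgds, Tbxas1, Alox5, Alox5ap and Ptger4 separate the other way.

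The members differed widely in level, which is compared here per length, as RPKM (CPM, counts scaled by library size and TMM factor, per kilobase of annotated exon). In Pdcd1f/f TAMs Alox5ap was at 174 ± 9.95 RPKM (SD, n = 3) and Ptgs2 at 154 ± 4.17, above 98.2% and 97.9% of 14461 genes. Lta4h followed at 12.6 ± 0.343 RPKM, Hpgds at 9.12 ± 0.747, Tbxas1 at 5.37 ± 0.276 and Ptger4 at 4.39 ± 0.0517. Ptges at 2.01 ± 0.0658 RPKM, Ptgs1 at 1.55 ± 0.135, Alox5 at 1.37 ± 0.226 and Ltc4s at 0.986 ± 0.167 were the lowest. Among neighbours in this order only Ptgs1 and Alox5, and Alox5 and Ltc4s, had overlapping libraries. Each branch was thus dominated by a single transcript, the cyclooxygenase Ptgs2 in one and the lipoxygenase partner Alox5ap in the other, while the lipoxygenase Alox5 itself was among the 4 lowest.

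In Pdcd1f/fLysMcre TAMs the order of the leading pair was exchanged, with Ptgs2 at 201 ± 9.80 RPKM and Alox5ap at 150 ± 1.13, and their libraries did not overlap in either genotype. The order from Lta4h (13.2 ± 0.926 RPKM) down through Hpgds (7.11 ± 0.347), Tbxas1 (4.17 ± 0.11) and Ptger4 (3.79 ± 0.128) to Ptges (2.02 ± 0.175), Ptgs1 (1.65 ± 0.168), Alox5 (0.857 ± 0.205) and Ltc4s (0.856 ± 0.158) was as in Pdcd1f/f TAMs. Only Alox5 and Ltc4s overlapped here. The levels depended on the length used, and most for Tbxas1, at 5.37 RPKM in Pdcd1f/f TAMs over 9094 exonic bases, 24.5 over its longest coding transcript of 1990 bases and 38.4 over the mean length of its coding transcripts. Over that mean length Ptgs2 was at 293 RPKM in Pdcd1f/f TAMs, Alox5ap at 360, Lta4h at 37.9, Hpgds at 16.9 and Alox5 at 2.55. Over either coding length Alox5ap and Ptgs2 remained the highest and Ltc4s the lowest, but Tbxas1 was above Hpgds. Over the mean length, the libraries of Tbxas1 overlapped those of Lta4h in Pdcd1f/f TAMs, and those of Alox5 overlapped those of Ptges (2.17 RPKM) and Ptgs1 (2.10), so the order among these genes is not kept.

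**Figure D2:**
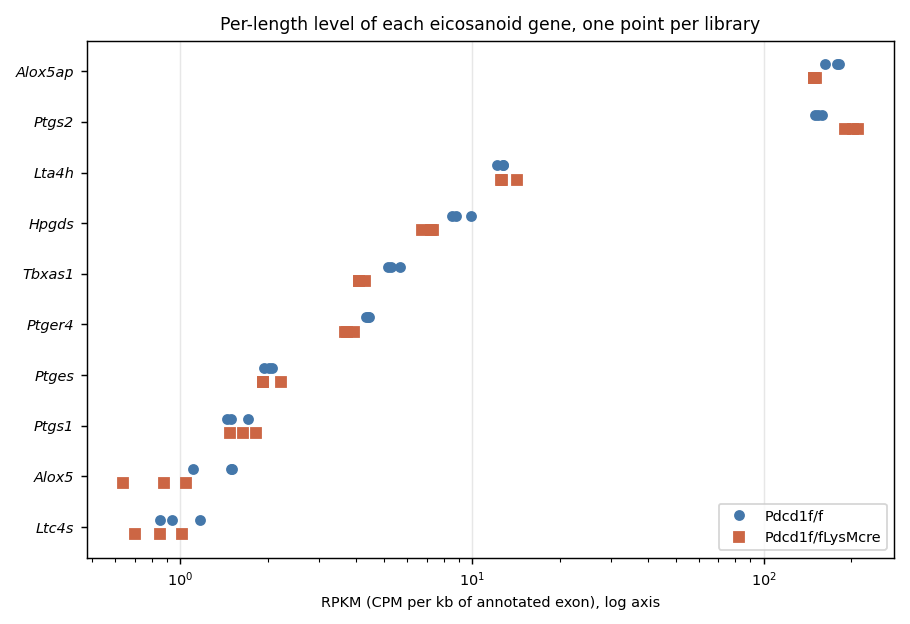
RPKM on a log axis (x) for each eicosanoid gene (y, ordered by the Pdcd1f/f mean), with 1 point for each library, circles for Pdcd1f/f and squares for Pdcd1f/fLysMcre. Alox5ap and Ptgs2 lie above 149 RPKM in every library and the other 8 genes below 15.

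Of the cyclooxygenases, only Ptgs2 passed the test. Ptgs2 (chromosome 1, 150100031 to 150108227, plus strand, GRCm38) had, in the order of the replicate numbers that is kept throughout, 34258, 32220 and 33373 normalized counts in Pdcd1f/f TAMs, against 43590, 45396 and 41126 in Pdcd1f/fLysMcre TAMs. Every Pdcd1f/fLysMcre library was above every Pdcd1f/f library. The log2 fold change was 0.38 with an SE of 0.06 (edgeR adjusted p = 0.00603). This call was lost when Pdcd1f/f replicate 2 (adjusted p = 0.0565) or Pdcd1f/fLysMcre replicate 1 (adjusted p = 0.0563) was left out, and the log2 fold change was 0.29 after offsets for GC content and gene length. Ptgs2 lies 56.0 Mb from Pdcd1 on the same chromosome.

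Ptgs1, the constitutive cyclooxygenase (chromosome 2, 36230426 to 36252272), had 274, 265 and 313 normalized counts in Pdcd1f/f libraries and 300, 272 and 333 in Pdcd1f/fLysMcre libraries. The libraries overlapped, with a log2 fold change of 0.09, an SE of 0.12 and an edgeR adjusted p of 0.687. Per length, Ptgs2 was 90.4 to 106 times the level of Ptgs1 in Pdcd1f/f and 105 to 141 times in Pdcd1f/fLysMcre libraries, so this ratio overlapped between the genotypes.

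The terminal prostanoid synthases did not move together. Hpgds, hematopoietic prostaglandin D synthase (chromosome 6, 65117293 to 65144908), had 3031, 2670 and 2602 normalized counts in Pdcd1f/f libraries and 2194, 2236 and 2034 in Pdcd1f/fLysMcre libraries. All 3 Pdcd1f/fLysMcre libraries were below the lowest Pdcd1f/f library, and Pdcd1f/f replicate 1 was the highest. Hpgds fell, with a log2 fold change of -0.36, an SE of 0.08 and an edgeR adjusted p of 0.0259. It passed in 2 of the 6 fits that left out 1 library, without Pdcd1f/f replicate 1 (adjusted p = 0.0116) and without Pdcd1f/f replicate 3 (0.0367), and in the other 4 the adjusted p was 0.0579 to 0.112. With GC and length offsets the log2 fold change was -0.45.

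Tbxas1, thromboxane A synthase (chromosome 6, 38875404 to 39084585), had 2213, 2261 and 2443 normalized counts in Pdcd1f/f libraries and 1764, 1844 and 1759 in Pdcd1f/fLysMcre libraries. The genotypes were separated by a gap wider than the spread within either. Tbxas1 fell by 0.36 on the log2 scale, with an SE of 0.07 and an edgeR adjusted p of 0.0140. It passed in 3 of 6 fits with 1 library left out, and lost the call without Pdcd1f/f replicate 2 (adjusted p = 0.0816), Pdcd1f/f replicate 3 (0.0676) or Pdcd1f/fLysMcre replicate 1 (0.0933).

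Ptges, the inducible microsomal prostaglandin E synthase (chromosome 2, 30889471 to 30929863), had 377, 359 and 386 normalized counts in Pdcd1f/f libraries and 357, 355 and 412 in Pdcd1f/fLysMcre libraries. The libraries overlapped fully, with a log2 fold change of 0.01, an SE of 0.10 and an edgeR adjusted p of 0.976, and the sign of this value changed with the scaling. Among the prostanoid enzymes, the transcript of the cyclooxygenase was thus higher, those of the prostaglandin D2 and thromboxane A2 synthases were lower, and Ptges and Ptgs1 gave no detectable difference.

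**Figure D3:**
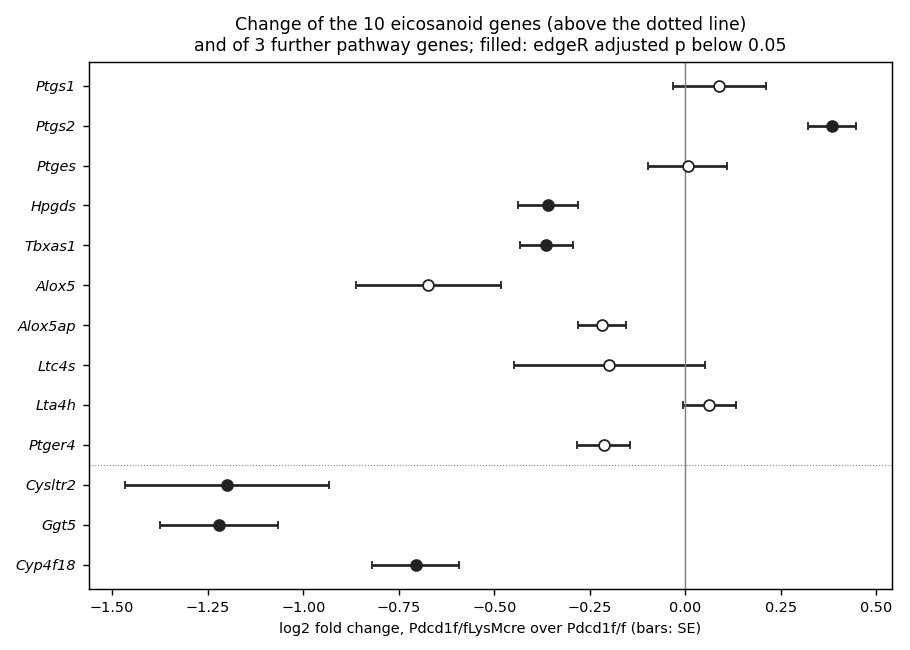
The log2 fold change of Pdcd1f/fLysMcre over Pdcd1f/f TAMs (x axis, bars are SE) for the 10 eicosanoid genes and, below the dotted line, for 3 further genes of the pathway that passed the test, with filled points for an edgeR adjusted p below 0.05. Ptgs2 is the single filled point right of 0, and Hpgds, Tbxas1, Cysltr2, Ggt5 and Cyp4f18 are filled left of it.

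None of the 4 leukotriene genes passed the edgeR test, although 2 of them had an unadjusted p below 0.05, as did 24.2% of all genes tested, and DESeq2, which called 12.2% of its genes, called the same 2, Alox5 and Alox5ap, both lower. Alox5, the 5-lipoxygenase (chromosome 6, 116410077 to 116461178), had 215, 289 and 291 normalized counts in Pdcd1f/f libraries and 171, 124 and 203 in Pdcd1f/fLysMcre libraries. The genotypes did not overlap, but the libraries within each spread widely, and Pdcd1f/f replicate 1 and Pdcd1f/fLysMcre replicate 2 were the lowest of their genotypes. Its log2 fold change of -0.67 was the largest of the 10 in size, with an SE of 0.19 and an edgeR adjusted p of 0.0679 (DESeq2 adjusted p = 0.0177). Without those 2 libraries the log2 fold change was -0.64 (edgeR adjusted p = 0.00256), and with the replicate number as a block, a fit that called 7.10% of all genes, the adjusted p was 0.0353. In edgeR fits with 1 library left out the adjusted p of Alox5 was 0.00800 to 0.263, with a log2 fold change of -0.85 to -0.50, and 2 of the 6 fits passed.

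Alox5ap, the membrane protein that presents arachidonic acid to Alox5 (chromosome 5, 149264767 to 149288153), had 10936, 11934 and 12162 normalized counts in Pdcd1f/f libraries and 9982, 9984 and 10102 in Pdcd1f/fLysMcre libraries. Every Pdcd1f/fLysMcre library was below every Pdcd1f/f library. The log2 fold change was -0.22, with an SE of 0.06 and an edgeR adjusted p of 0.0695 (DESeq2 adjusted p = 0.0198), and without the 2 libraries that stood apart in GC content it was -0.27 (edgeR adjusted p = 0.00054). With GC and length offsets the log2 fold change of Alox5ap was -0.15 (edgeR adjusted p = 0.0196), and with the replicate block the adjusted p was 0.0752. In edgeR fits with 1 library left out the adjusted p was 0.00722 to 0.288, and 1 of 6 passed, without Pdcd1f/f replicate 1.

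The enzymes that use leukotriene A4 gave no detectable difference. Lta4h, the leukotriene A4 hydrolase (chromosome 10, 93453411 to 93484875), had 3527, 3665 and 3706 normalized counts in Pdcd1f/f and 3642, 4098 and 3627 in Pdcd1f/fLysMcre libraries. The log2 fold change was 0.06 with an SE of 0.07 (edgeR adjusted p = 0.612), and Lta4h lies 23.8 Mb from Lyz2 on the same chromosome. Ltc4s, the leukotriene C4 synthase (chromosome 11, 50236461 to 50238616), had 40.8, 55.9 and 44.9 normalized counts in Pdcd1f/f and 40.7, 48.6 and 33.4 in Pdcd1f/fLysMcre libraries. At 34 to 51 raw counts per library it was the least precisely measured member, with a log2 fold change of -0.20, an SE of 0.25 and an edgeR adjusted p of 0.661.

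Ptger4, the prostaglandin E2 receptor EP4 (chromosome 15, 5206661 to 5244187), had 1362, 1378 and 1393 normalized counts in Pdcd1f/f libraries and 1172, 1156 and 1231 in Pdcd1f/fLysMcre libraries. The genotypes did not overlap. The log2 fold change was -0.21, with an SE of 0.07, and the edgeR adjusted p was 0.0983 (DESeq2, 0.0729). It was 0.0344 without the 2 libraries that stood apart in GC content, with a log2 fold change of -0.21, and 0.129 with the replicate block. With 1 library left out the edgeR adjusted p of Ptger4 was 0.0498 to 0.325, and 1 of 6 fits passed.

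Annotated genes overlap Ptgs1, Tbxas1, Alox5ap, Ltc4s and Ptger4 on the opposite strand. Whether reads were counted by strand is not given in the sources used here, so reads from those genes could be included in these 5 values. No annotated gene overlaps Ptgs2, Hpgds, Ptges, Alox5 or Lta4h on either strand.

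The branches were then set against each other in each library, as a description with no test because the members were chosen. The summed per-length level of the 5 prostanoid enzymes was 0.999, 0.861 and 0.876 times that of the 4 leukotriene genes in the Pdcd1f/f libraries, and 1.33, 1.37 and 1.24 times that sum in the Pdcd1f/fLysMcre libraries. The sums therefore changed order, from a ratio below 1 in every Pdcd1f/f library to one above 1 in every Pdcd1f/fLysMcre library. Their size depends on length, at 0.830 to 0.956 and 1.16 to 1.27 over the mean coding transcripts and 0.810 to 0.931 and 1.10 to 1.18 over the longest coding transcripts. The prostanoid sum was 167 to 177 RPKM in Pdcd1f/f and 205 to 225 in Pdcd1f/fLysMcre libraries, and the leukotriene sum was 177 to 196 and 163 to 165 RPKM. These sums were mostly Ptgs2 (89.5% of the prostanoid sum in every Pdcd1f/f library and 92.8% to 93.3% in Pdcd1f/fLysMcre) and Alox5ap (92.0% to 92.2% and 90.4% to 91.3% of the leukotriene sum). With all members weighted equally, as the mean log2 level of the prostanoid minus that of the leukotriene genes, the balance was 0.03 ± 0.17 (SD, n = 3) in Pdcd1f/f and 0.24 ± 0.02 in Pdcd1f/fLysMcre libraries. Pdcd1f/f replicate 1, at 0.20, came close to the lowest Pdcd1f/fLysMcre library, at 0.22. The difference in this balance was 0.21. It was 0.30 without both libraries that stood apart in GC content, and 0.13 without Pdcd1f/f replicate 2.

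In this equally weighted form the prostanoid mean overlapped between the genotypes (2.85 to 2.94 and 2.84 to 2.88 log2 RPKM), since Ptgs2 moved against Hpgds and Tbxas1. The leukotriene mean did not overlap (2.72 to 2.99 and 2.61 to 2.62 log2 RPKM). It gives Alox5 (log2 fold change -0.67) and the low-count Ltc4s (-0.20) the same weight as Alox5ap (-0.22) and Lta4h (0.06). None of these 4 genes passed the edgeR test.

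The ratio of Ptgs2 to each terminal synthase did not overlap between the genotypes. For Hpgds and Tbxas1 this had to follow, since Ptgs2 was higher and both of these were lower without overlap. Ptges gave no detectable difference, so its ratio mostly repeats the rise of Ptgs2. Ptgs2 was 15.9 to 18.0 times the per-length level of Hpgds in Pdcd1f/f libraries and 27.9 to 28.5 times in Pdcd1f/fLysMcre libraries. Over Tbxas1 the ratio was 27.1 to 30.7 and 46.4 to 49.1, and over Ptges it was 74.3 to 78.1 and 85.7 to 110. The size of these ratios depends on the lengths used, and over the longest coding transcripts Ptgs2 was 6.10 to 6.92 times Tbxas1 in Pdcd1f/f and 10.4 to 11.05 times in Pdcd1f/fLysMcre libraries. The fold between the genotypes in a ratio of 2 genes does not depend on length. The ratio of Alox5ap to Alox5 overlapped, at 119 to 147 in Pdcd1f/f and 144 to 233 in Pdcd1f/fLysMcre libraries.

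**Figure D4:**
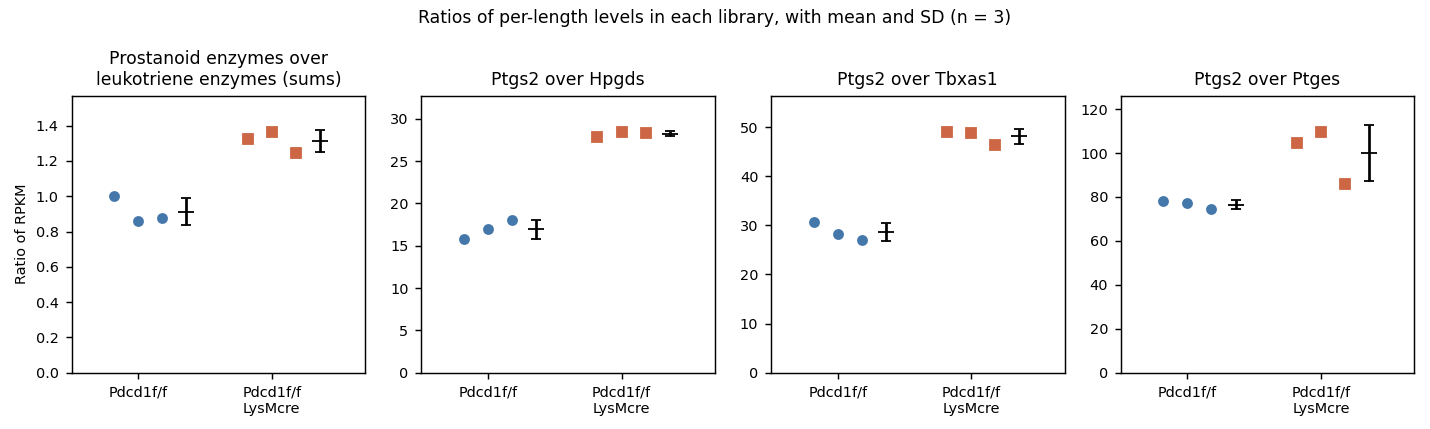
Ratios of RPKM (y axes, from 0) in each library, circles for Pdcd1f/f and squares for Pdcd1f/fLysMcre, with mean and SD of 3 libraries, for the summed prostanoid over the summed leukotriene enzymes and for Ptgs2 over Hpgds, Tbxas1 and Ptges. The summed ratio is below 1 in all Pdcd1f/f and above 1.2 in all Pdcd1f/fLysMcre libraries, and the Ptgs2 to Hpgds ratio goes from about 16.9 to 28.2.

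Around the 10 members, 60 further genes of arachidonate release, prostanoid and lipoxygenase synthesis, receptors, export and inactivation were listed by role, of which 39 had enough counts to be tested. In the edgeR test 3 of these fell and 0 rose, that is 7.69% of the 39 beside 5.43% of all genes tested, and 17 had an unadjusted p below 0.05, beside 24.2% of all genes tested. DESeq2 called 7, with 1 higher, beside 12.2% of the genes it tested. The median log2 fold change over the 39 was -0.11.

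The 3 genes that fell were 2 of 12 tested in the list of export, uptake and inactivation (Ggt5 and Cyp4f18) and 1 of 5 tested among leukotriene and oxylipin receptors (Cysltr2). Genes of the same lists that also act on leukotrienes did not pass. The log2 fold change was -0.11 for the leukotriene B4 receptor Ltb4r1 (edgeR adjusted p = 0.620), -0.08 for the dipeptidase Dpep2 (0.678) and -0.09 for the cytochrome P450 Cyp4f16 (0.521). A further cytochrome P450 of the first list, Cyp4f13, was at -0.32 (edgeR adjusted p = 0.112), and its libraries did not overlap between the genotypes. Ggt5, the glutamyl transferase that turns leukotriene C4 into leukotriene D4, had 226, 237 and 265 normalized counts in Pdcd1f/f libraries and 114, 84.8 and 113 in Pdcd1f/fLysMcre libraries, a 2.33-fold lower level (log2 fold change -1.22, SE 0.15, edgeR adjusted p = 0.00158). It passed in all 6 fits with 1 library left out. Cysltr2, a receptor for cysteinyl leukotrienes, had 81.6, 67.0 and 67.9 normalized counts in Pdcd1f/f and 42.6, 21.9 and 29.5 in Pdcd1f/fLysMcre libraries. Its log2 fold change was -1.20, with an SE of 0.27 and an edgeR adjusted p of 0.0285, and it passed in 2 of 6 fits with 1 library left out, without Pdcd1f/f replicate 1 (0.0222) or Pdcd1f/fLysMcre replicate 1 (0.0349). In the other 4 the edgeR adjusted p was 0.0709 to 0.100, and without both libraries that stood apart in GC content the log2 fold change of Cysltr2 was -0.90 (adjusted p = 0.0300). Cyp4f18, a cytochrome P450 that hydroxylates leukotriene B4, had 1329, 1632 and 1760 normalized counts in Pdcd1f/f and 969, 868 and 1053 in Pdcd1f/fLysMcre libraries. Its log2 fold change was -0.71, with an SE of 0.11 and an edgeR adjusted p of 0.00603, and it lost the call only without Pdcd1f/fLysMcre replicate 1 (adjusted p = 0.0503).

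Genes that release or return arachidonic acid gave no call. None of 5 release genes tested passed in edgeR (1 at an unadjusted p below 0.05, 0 in DESeq2), and Pla2g4a, the cytosolic phospholipase A2, was at 4349 ± 485 normalized counts (SD, n = 3) in Pdcd1f/f and 4723 ± 668 in Pdcd1f/fLysMcre libraries. Pla2g12a, a secreted phospholipase A2, had a log2 fold change of 0.02. None of 3 reacylation genes passed (1 at an unadjusted p below 0.05, 0 in DESeq2), with Acsl4, which activates arachidonic acid to its CoA ester, at a log2 fold change of 0.16 (edgeR adjusted p = 0.201) and Mboat7, a lysophospholipid acyltransferase, at -0.10.

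Among 5 other prostanoid synthesis genes tested, edgeR called 0, with 4 at an unadjusted p below 0.05 and 1 called by DESeq2. That gene was Ptges3, the cytosolic prostaglandin E synthase also known as the p23 cochaperone, whose log2 fold change was 0.35 (SE 0.11, edgeR adjusted p = 0.0780, DESeq2 adjusted p = 0.0204). Ptges2 (log2 fold change -0.24, edgeR adjusted p = 0.147), Cbr1 (-0.29, 0.0954) and Prxl2b (-0.31, 0.151) also had an unadjusted p below 0.05. Of the 5 genes 1 had a positive and 4 a negative log2 fold change, with a median of -0.24. Akr1b3, an aldo-keto reductase with prostaglandin F synthase activity, was at -0.03, and Ptgds, the other prostaglandin D synthase, had 0 counts in every library. Among 5 other lipoxygenase pathway genes tested edgeR called 0 (3 at an unadjusted p below 0.05, 1 in DESeq2). Cotl1, a protein that binds 5-lipoxygenase, had a log2 fold change of -0.30 (edgeR adjusted p = 0.0904) and Mgst3, a microsomal glutathione transferase, -0.22 (0.173). Alox15, a 12/15-lipoxygenase named here after its values were seen, was at 27.8, 26.8 and 35.0 normalized counts in Pdcd1f/f and 9.25, 5.71 and 16.7 in Pdcd1f/fLysMcre libraries, with a log2 fold change of -1.49, an SE of 0.40 and an edgeR adjusted p of 0.0598.

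Of 8 other prostanoid receptors 4 were tested and edgeR called 0 (2 at an unadjusted p below 0.05, 1 in DESeq2). Ptger2, the EP2 receptor for prostaglandin E2, had 127, 147 and 159 normalized counts in Pdcd1f/f and 102, 87.6 and 93.4 in Pdcd1f/fLysMcre libraries (log2 fold change -0.61, SE 0.16, edgeR adjusted p = 0.0512). Ptgir, the prostacyclin receptor, had 68.6, 62.6 and 72.3 normalized counts in Pdcd1f/f and 99.9, 108 and 106 in Pdcd1f/fLysMcre libraries (log2 fold change 0.63, SE 0.16, edgeR adjusted p = 0.0538). The genotypes did not overlap for either gene, and the values of EP2 and EP4 were both on the lower side while that of the prostacyclin receptor was on the higher side. Of the leukotriene and oxylipin receptors tested, Cysltr1 was at 3442 ± 282 normalized counts (SD, n = 3) in Pdcd1f/f and 3553 ± 336 in Pdcd1f/fLysMcre libraries, with a log2 fold change of 0.05, and Cmklr1 had a log2 fold change of -0.29 (edgeR adjusted p = 0.103). The exporter Abcc1, which transports leukotriene C4, was at 0.17 (adjusted p = 0.139), and the reductase Ptgr2, which inactivates keto prostaglandins, at -0.06.

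The members could also be described by the genes whose log2 CPM followed theirs most closely over the 6 libraries, among 10612 genes with a mean of at least 100 counts. The libraries form only 2 genotypes, so a difference between the genotypes can by itself raise r, and the values are a description. Among pairs of members whose genotypes did not overlap, the r smallest in size was 0.54 (Hpgds and Alox5). The largest in size was -0.995 (Ptgs2 and Ptger4). For Hpgds the closest genes were Mrc1 (Pearson r = 0.995), the mannose receptor of macrophages, Pdgfc (0.994) and Ms4a6b (0.991), and for Ptgs2 they were Cdk17 (0.998), Ceacam1 (0.997) and Cd36 (0.996), the scavenger receptor. For Tbxas1 they were Dctn3, Glul and Tifab (0.998 to 0.993), for Alox5 Pebp1, B3gntl1 and Tmem204 (all 0.998), for Alox5ap Tmem106a, Fcgr1 and Sgsh (0.999 to 0.998) and for Ptger4 Maged1, Ctsf and Pou6f1 (all 0.997). For members whose genotypes overlapped, the closest genes were Polr3e, BC030867 and Cdca3 for Ptgs1 (0.985 to 0.978), Ankrd50, Hmox2 and Borcs5 for Ptges (0.980 to 0.936), Rab5if, Glo1 and Eya4 for Ltc4s (0.978 to 0.964) and Trim5, Homez and Bcl2l2 for Lta4h (0.991 to 0.987). Above an r of 0.95 there were 108 genes for Hpgds and 380 for Ptgs2, but 1 for Ptges.

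Marker genes of other cells and states moved with these results. All 8 tested of 10 markers of resident-like macrophages fell, with a summed level of 5534 to 5936 CPM in Pdcd1f/f and 3883 to 4262 CPM in Pdcd1f/fLysMcre libraries, and the remaining markers, Timd4 and Vsig4, had at most 7 counts. Mrc1, the closest gene to Hpgds, is on this list, with a log2 fold change of -0.31. The part of these cells in the lower Hpgds, Tbxas1, Ggt5, Cysltr2 and Cyp4f18 was not tested. In RNA from bulk cells, fewer cells of a type and less RNA per cell cannot be told apart.

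The macrophage identity of the sample was seen in Adgre1, the gene for F4/80, at 32377 and 24793 mean normalized counts in Pdcd1f/f and Pdcd1f/fLysMcre libraries. Of 7 macrophage markers 3 fell (Adgre1, Csf1r and Mertk), with sums of 4933 to 5367 and 4627 to 4717 CPM. Mast cells, basophils and eosinophils also make prostaglandin D2 or cysteinyl leukotrienes. Of their markers, Fcer1a, Mcpt8 and Epx were at 0 counts in every library and Cpa3 at no more than 6. Of 5 eosinophil markers Ccr3, a chemokine receptor, was the only one tested, with 692 to 1178 counts per library and a log2 fold change of 0.15 (edgeR adjusted p = 0.509), and the summed level of the list was 16.7 to 21.7 CPM in Pdcd1f/f and 18.5 to 24.0 CPM in Pdcd1f/fLysMcre libraries. The sum over 10 mast cell and basophil markers, carried by Hdc and Gata2, was 6.62 to 7.28 CPM in Pdcd1f/f and 7.98 to 10.6 in Pdcd1f/fLysMcre libraries, and the part of these cells in the Hpgds, Alox5 and Ltc4s values was not tested. Hdc, the histidine decarboxylase that makes histamine, was at 257 mean normalized counts in Pdcd1f/f and 356 in Pdcd1f/fLysMcre libraries, which did not overlap (log2 fold change 0.47, edgeR adjusted p = 0.0599, DESeq2 adjusted p = 0.0253), and Gata2 was at 67.2 and 66.6. Platelets contain thromboxane synthase, and their markers Gp1bb and Gp9 had at most 1 count, while Ppbp rose (log2 fold change 0.83, edgeR adjusted p = 0.000202) and Pf4 did not pass. The sort took Ly6G- cells, and Ly6g had at most 3 counts. Of 9 neutrophil markers 6 were tested, 3 with a positive and 3 with a negative log2 fold change. Csf3r (-0.51) and Mmp8 (-0.48) fell, and S100a8 (0.23), S100a9 (0.12), Cxcr2 (0.03) and Retnlg (-0.95) did not pass. The summed level was 139 to 143 CPM in Pdcd1f/f and 117 to 120 in Pdcd1f/fLysMcre libraries, and the part of neutrophils in the lower Alox5 and Cyp4f18 values was not tested.

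The calls on the members depended on the libraries and the tool. Leaving out 1 library at a time gave 0 to 6 members past the threshold, in fits that called 1.51% to 21.6% of all genes. In edgeR 0 were called without Pdcd1f/f replicate 2 or without Pdcd1f/fLysMcre replicate 1, and 6 without Pdcd1f/f replicate 1. Without Pdcd1f/f replicate 2, 6 members had an unadjusted p below 0.05, as did 2199 of 14830 genes tested. Without Pdcd1f/fLysMcre replicate 1, 6 members had one, as did 2664 of 14740 genes tested. DESeq2 over all libraries called 5 members, beside 12.2% of the genes it tested. Leaving out both libraries that stood apart in GC content gave 6, where 26.2% of all genes were called, the same 6 genes as with offsets for GC content and length, where 20.7% were, namely Ptgs2 higher and Hpgds, Tbxas1, Alox5, Alox5ap and Ptger4 lower. Without those libraries the log2 fold change was 0.37 for Ptgs2, -0.32 for Hpgds and -0.42 for Tbxas1, and -1.15 for Ggt5 and -0.75 for Cyp4f18. In every one of the 20 settings Ptgs2 was higher and these 5 were lower in TAMs that carried Cre. The libraries of these 6 genes did not overlap between the genotypes, so leaving out libraries could hardly reverse a direction. The kept directions are therefore no separate support.

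**Figure D5:**
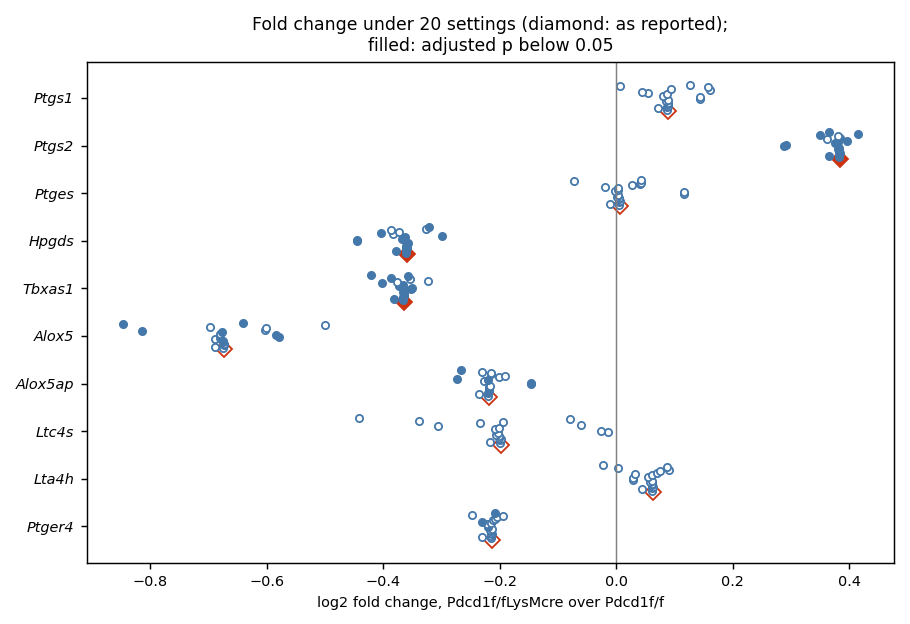
The log2 fold change of each eicosanoid gene (x axis) under 20 settings of normalization, filter, tool, offsets and libraries, with the reported value as a diamond and filled symbols for an adjusted p below 0.05. Ptgs2 stays between 0.29 and 0.41, Hpgds between -0.45 and -0.30 and Tbxas1 between -0.42 and -0.32, while Alox5 ranges from -0.85 to -0.50 and the values of Ptges and Lta4h lie on both sides of 0.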

How the data were processed

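RNA-seq of TAMs was compared between 3 Pdcd1f/fLysMcre and 3 Pdcd1f/f libraries, grouped by their labels. The authors made stranded polyA libraries, checked reads with FastQC (0.11.5), trimmed them with Cutadapt (2.5), aligned them to GRCm38 with STAR (2.7.3a) and assigned them to Ensembl genes with featureCounts (Subread 1.6.2). Strand setting and handling of multi-mapped reads are not given in the sources used here. The authors deposited raw counts for 55421 genes and a normalized signal table for 16552 genes, whose values are the counts divided by a DESeq2 (1.24.0) size factor per library. Library totals of 41833823 to 51417209 counts put 3 counts at 0.0588 to 0.0713 CPM, which covers counting error only.

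Counts were tested with edgeR (4.0.16, R 4.3.3) after filterByExpr (minimum count 10, minimum total 15) and TMM scaling, with robust glmQLFit, the two-sided glmQLFTest and Benjamini-Hochberg adjustment over all 14469 genes tested. The SE came from the log2 fold change and its F statistic. Values per library are the authors' normalized counts. RPKM used the union of exons (GENCODE M21, GRCm38). Scripts were tested on simulated data. The members and lists were chosen with earlier results of these data known. Named are all members, every further pathway gene that passed, the 2 with the highest counts of each list, the 3 genes closest to each member, Lyz2 and Pdcd1, and cell markers where a result turns on them. Ptgds, Ptges2, Cbr1, Prxl2b, Alox15, Ltb4r1, Dpep2, Cyp4f13, Cyp4f16 and Xist, and which markers to name, were chosen after their values were seen.

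Alternatives were RLE size factors, library size alone, a filter of 1 count in any library or of 10 in all of them, DESeq2 (1.42.0) with Benjamini-Hochberg or Storey q-values, limma-trend (3.58.1) on log2(value + 1) of the deposited normalized values, a block for the replicate number, loess offsets (span 0.5) for GC content and length with and without that block, each library left out, and other transcript lengths. Chosen after seeing the data were edgeR and DESeq2 with Storey q-values over the 16552 genes, and leaving out both libraries that stood apart in GC content.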

Additional observations from a re-analysis of the deposited data

How the results depend on the processing

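The reported fit called 786 genes (350 higher, 436 lower), 3 members and 3 further pathway genes. The numbers for all genes, members and pathway genes were 1951, 5 and 11 with at least 1 count in any library, 1524, 5 and 7 with DESeq2, 2995, 6 and 11 with GC and length offsets, 1766, 5 and 11 with DESeq2 and Storey q-values over the genes of the normalized table, and 3757, 6 and 17 without both libraries that stood apart in GC content. The offsets gave 1981 higher and 1014 lower genes, another split than the reported one. DESeq2 with Storey q-values over all genes called 5 members. Leaving out 1 library gave 222 to 3181 genes, 0 to 6 members and 2 to 15 pathway genes. The numbers were lowest without Pdcd1f/fLysMcre replicate 1 (222 genes) and Pdcd1f/f replicate 2 (224) and highest without Pdcd1f/f replicate 1 (3181). The cause was not tested.

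With the replicate number as a block, 1027 genes, 4 members (Alox5 added) and 5 pathway genes passed, and with the block and the offsets 3233, 6 and 12. The numbers did not pair the libraries, since deviations from the genotype means correlated at -0.09, -0.39 and 0.65 between libraries of the same number, and not every library was closest to its own number.

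The balance of the branches differed by 0.21 between the genotypes with members weighted equally, by 0.53 as the log2 ratio of sums and by 0.13 to 0.30 with 1 library left out. Ptges (-0.0728 to 0.0436 with 1 library left out) changed sign with library size alone (-0.011), over the genes of the normalized table (-0.0015), without Pdcd1f/f replicate 2 (-0.0196) and without Pdcd1f/fLysMcre replicate 3 (-0.0728), and Lta4h without both libraries that stood apart (-0.0232). Of 247 values of 13 genes under 19 alternatives, 206 kept direction and call, 14 lost the call and 22 gained one. Of the members, Ltc4s had the fewest counts (34 to 51 per library).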
